A study of Homo sapiens with 6 samples.

Results

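The promoters of 42 DNA replication genes were examined in 6 lists of accessible chromatin from fixed human lymphoblastoid cells. The genes were taken as a named list of the replication machinery, all 42 of which were found among the 20136 protein-coding genes of GENCODE version 44 on hg19, and the list used no measured value. It holds 8 genes of the origin, 14 of the helicase and its activation, 7 of the polymerases and primase, 6 of the sliding clamp and its loader, 3 of the single-strand binding protein and 4 of Okazaki fragment processing. A gene was counted as called in a library where at least 1 base of a peak lay within 1 kb of its start, and the strongest such peak stood for it.

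The cells were GM12878 cells, a B-lymphoblastoid line from 1 donor. ATAC-seq uses the Tn5 transposase to put sequencing adapters into open chromatin. All cells were fixed with 1% formaldehyde before transposition, and the crosslinks were then reversed overnight at 65 °C by 3 protocols with 2 libraries each. In the old protocol the reverse crosslinking buffer contained SDS and the DNA was purified, in another a new buffer free of SDS was used and the DNA was purified, and in the last the new buffer was used and PCR followed directly without purification, which is the bulk form of Pi-ATAC. The labels describe the same lysis and quenching for all 6 libraries, while the methods give these steps for bulk Pi-ATAC only, so whether the old-buffer libraries had them is unclear, and the contrasts with the old buffer may include them. The labels do not say whether the 2 libraries of a protocol came from separate cultures, so the spread between them may be technical.

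Replication of a chromosome starts where the origin recognition complex and its helpers load the MCM helicase in G1. In S phase CDC45 and the GINS complex turn the loaded MCM ring into an active helicase, the polymerases copy both strands held by the PCNA clamp, and the lagging strand is made in Okazaki fragments that are trimmed and joined. Many of these genes are transcribed at the G1 to S transition under the control of E2F factors, and a proliferating cell line needs all of the steps. An open promoter is not a measure of expression.

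The 6 lists held 30136 to 38023 peaks. Summit read numbers could be solved from each peak's enrichment and significance, and the median summit had 20 to 22 reads. By the lowest local background, the deepest library was 1.24 times as deep as the shallowest, so an uncalled promoter was below the calling threshold at this depth and is not shown to be closed. The 2 unpurified libraries were the deepest, with a lowest background of 1.76 and 1.86 reads, against 1.51 to 1.74 in the others. Depth and protocol can therefore not be told apart where the −log10 q is compared between protocols, and no share over all genes was computed for such orders. Among markers of B-lymphoid cells the promoters of MS4A1 and EBF1 were called in all 6 libraries, CD79A in 4, CD79B and PAX5 in 1 each, and CD22 and BLK in none. None of 4 T cell, 4 erythroid and myeloid or 4 epithelial and liver markers was called in any library.

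Most replication promoters were called in every library. At the 5′ end of the gene record, 35 of the 42 genes (83.3%) were called in all 6 libraries, while 40.5% of all protein-coding genes were. In at least 1 library 39 of the 42 were called, against 54.6% of all genes. With the old buffer 37 and 36 genes were called in replicates 1 and 2 (88.1% and 85.7%), against 47.5% and 45.9% of all genes. With the new buffer and purification the numbers were 38 and 36 (90.5% and 85.7%), against 49.3% and 46.4%, and without purification 37 and 36 (88.1% and 85.7%), against 49% and 48.8%. The means were 36.5 ± 0.707, 37 ± 1.41 and 36.5 ± 0.707 genes (SD, n = 2 each), and the 3 protocols overlapped.

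**Figure D1:**
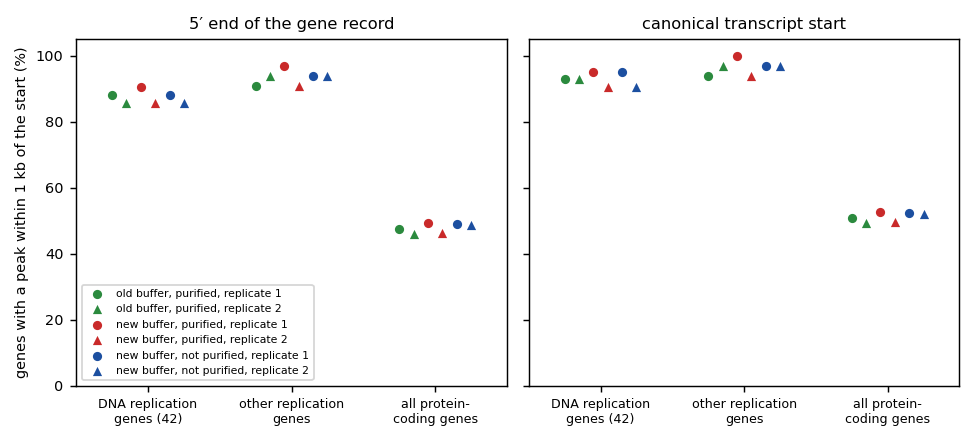
Share of genes with a peak within 1 kb of the start (y axis, percent) for the 42 replication genes, 33 other replication genes and all protein-coding genes, with 1 point per library, at the gene record start (left) and at the canonical transcript start (right). The replication genes lie between 85.7% and 95.2% in every library and all genes between 45.9% and 52.8%, and the protocols overlap.

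The gene record begins at the outermost annotated transcript, which for 7 members lies over 1 kb from the start of the canonical transcript: GINS1, GINS2, GINS3, PRIM2, POLD3, PCNA and RFC5. For GINS3, PRIM2 and RFC5 this decided the call, since these 3 genes had no peak at the gene record start in any library and a peak at the canonical start in all 6. At canonical starts 37 of the 42 genes (88.1%) were called in all 6 libraries, against 43.3% of all genes, and no member was missing everywhere, against 58.2% of all genes called at least once. The remaining 5 were POLD3, RFC1, RNASEH2A, FEN1 and DNA2. The values that follow are from the gene record start unless the canonical start is named, and lists of 6 values run through replicates 1 and 2 of the old buffer, of the new buffer with purification and of the new buffer without purification.

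All 8 origin genes were called in all 6 libraries. ORC1 to ORC6 encode the origin recognition complex, and CDC6 and CDT1 help it to load the MCM ring onto DNA. ORC4 had the strongest peak of the group, with a −log10 q of 50.3, 46.2, 65.3, 44.4, 47.8 and 45.6, the −log10 q being the peak caller's adjusted significance of the summit. The peak ranked within the top 2.44% of every library's list. Its highest value was in replicate 1 of the new buffer with purification, and the other 5 values lay close together and overlapped between protocols.

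ORC4 lies on the minus strand of chromosome 2 with its gene record start at 148779173 (hg19), and its canonical start is 867 bp downstream of that. The widest peak of all members was that of ORC6, with 1229, 1226, 1300, 1100, 1603 and 1221 bp. This peak also covered the start of VPS35, a retromer gene that is transcribed in the opposite direction from 125 bp upstream, in all 6 libraries. Within the ORC complex the mean −log10 q over the libraries ran from 13.1 for ORC1 to 50.0 for ORC4. CDT1 had the weakest peak of the loading factors, with a −log10 q of 8.26 to 14.4, and CDC6 had 9.70 to 20.6.

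**Figure D2:**
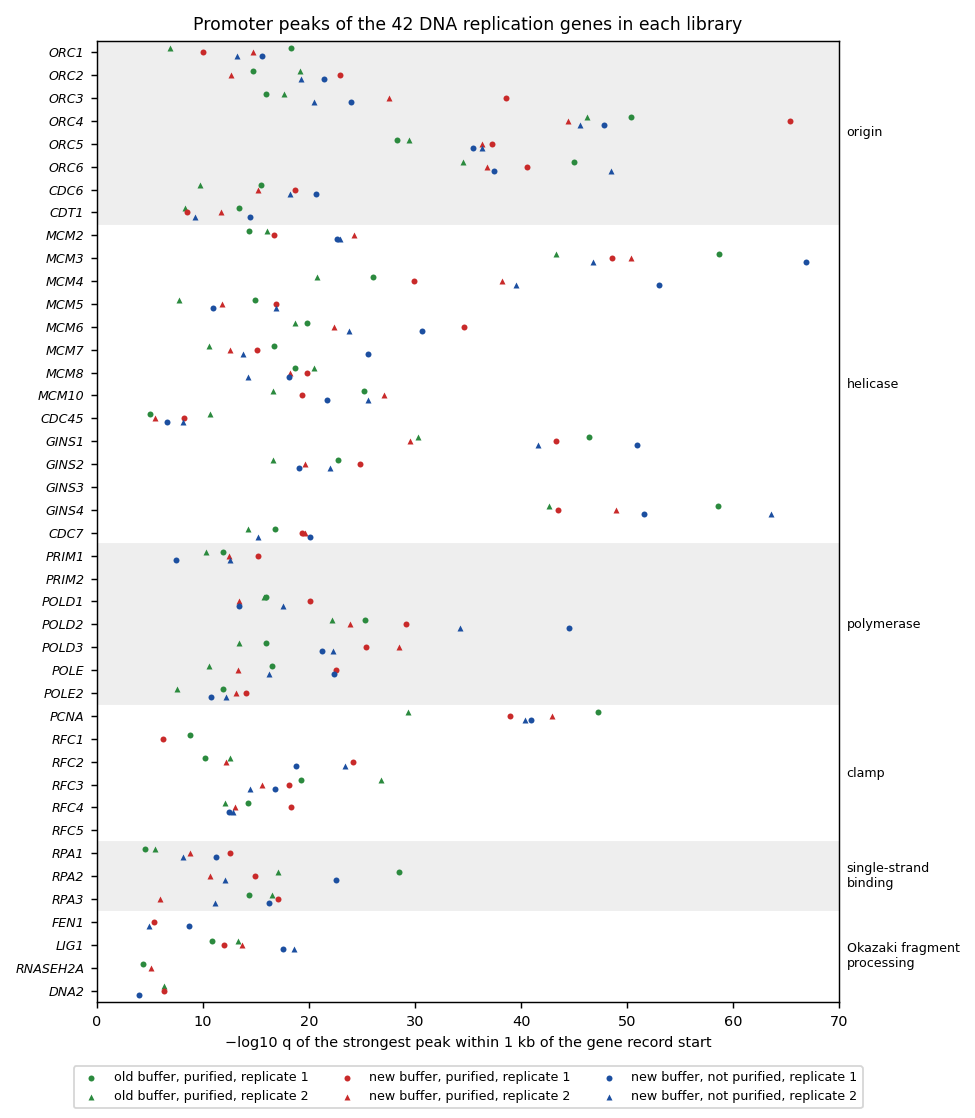
Strength of the promoter peak of each replication gene, as the −log10 q of the strongest peak within 1 kb of the gene record start (x axis), with 1 point per library and the genes grouped by complex (y axis). ORC4, MCM3 and GINS4 lie at 42.7 or higher in every library, while RFC1, FEN1, RNASEH2A and DNA2 have 2 or 3 points each, all below 9, and GINS3, PRIM2 and RFC5 have none at this start.

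Of the 14 helicase genes 13 were called in all 6 libraries, and all 14 at the canonical start. MCM2 to MCM7 form the ring that unwinds the DNA. MCM3 had the highest mean −log10 q of all members, with 58.6, 43.3, 48.5, 50.4, 66.8 and 46.8. The spread between replicates of 1 protocol was as wide as that between protocols. Its gene record start is at 52149679 on the minus strand of chromosome 6. The 6 ring genes differed in strength, from a mean −log10 q of 13.2 for MCM5 to 52.4 for MCM3, and in mean width from 402 bp for MCM5 to 836 bp for MCM6.

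GINS4, a subunit of the GINS complex, was close to MCM3 with a −log10 q of 58.6, 42.7, 43.5, 49.0, 51.6 and 63.6, and it had the highest mean fold enrichment of the members, 12.3. ORC4, MCM3 and GINS4 were the only members in the top 5% of every list. They were 8.57% of the 35 members called throughout, against 9.17% of all genes called throughout. CDC45, which joins MCM and GINS in the active helicase, had the weakest helicase peak, at a mean −log10 q of 7.36. MCM10, which takes part in helicase activation, and CDC7, the kinase that triggers it, were called in all 6 libraries.

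The 3 GINS genes with a displaced gene record differed in what the record start showed. The record of GINS1 begins 16665 bp upstream of the canonical start, beside the lipid hydrolase gene ABHD12, and the mean −log10 q there was 40.3. At the canonical start of GINS1 the −log10 q was 14.8, 19.5, 27.9, 20.7, 23.5 and 26.2, so both sites were called throughout and the one at the gene itself was weaker. GINS3 had no peak at its record start, 97391 bp upstream of its canonical start and beside PRSS54, while at the canonical start it had a −log10 q of 17.1, 7.60, 13.6, 9.52, 24.5 and 13.7. Both unpurified libraries, which were also the deepest, lay above both purified new-buffer ones for GINS3, the closest values being 13.7 and 13.6. The old-buffer libraries overlapped with each. For GINS2 a single peak was found, 1002 to 1040 bp downstream of the record start and with a median offset of -90 bp from the canonical start, and here both starts pointed to the same site.

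Among the 7 polymerase genes POLD1, POLD2 and POLD3 belong to polymerase delta, POLE and POLE2 to polymerase epsilon, and PRIM1 and PRIM2 to the primase. POLD2 was the strongest, with a −log10 q of 25.3, 22.1, 29.2, 23.9, 44.5 and 34.2. Both libraries of the unpurified protocol, which were also the deepest, lay above the other 4. The POLD2 summit lay 709, 706, 684, 746, 732 and 826 bp inside the gene record and close to the canonical start, which is 810 bp downstream of the record start.

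PRIM2 was found at the canonical start alone, with a −log10 q of 13.4, 11.8, 15.1, 10.1, 16.4 and 10.5. In 5 libraries the strongest PRIM2 peak had its summit 840 to 981 bp upstream of that start, and in replicate 2 of the unpurified protocol 16 bp upstream of it. POLD3 showed the reverse. It was called in all 6 libraries at its record start, which lies 127 bp from the start of the lipoyltransferase gene LIPT2, but at its canonical start, 98731 bp downstream, it was called in only 2. These were replicate 2 of the old buffer, with a −log10 q of 4.55, and replicate 1 of the unpurified protocol, with 6.53.

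PCNA is the sliding clamp, and RFC1 to RFC5 form the loader that opens it. The PCNA record starts 6668 bp upstream of the canonical start, beside the phospholipid synthesis gene CDS2, and the peak there had a −log10 q of 47.2, 29.3, 39.0, 42.9, 40.9 and 40.3. At the canonical start of PCNA, at 5100604 on the minus strand of chromosome 20, another peak had 34.6, 29.3, 48.1, 30.6, 37.1 and 34.7. Both were called in every library. The protocols overlapped at the record start. At the canonical start both unpurified libraries, which were also the deepest, lay just above both old-buffer ones.

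RFC5 had no peak at the record start and a −log10 q of 33.3, 16.6, 26.1, 15.3, 25.6 and 26.6 at the canonical start. RFC2, RFC3 and RFC4 were called in all 6 libraries, with mean −log10 q values of 13.8 to 18.5. RFC1, the large subunit of the loader, was called in only 2 libraries. Its −log10 q was 8.75 in replicate 1 of the old buffer and 6.24 in replicate 1 of the new buffer with purification. In the other 4 libraries the nearest summit was at least 12558 bp away, so no peak stood just outside the window.

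The single-strand binding protein RPA coats the unwound DNA, and its 3 genes were called in all 6 libraries. RPA2 was the strongest at the record start, with a −log10 q of 28.5, 17.0, 14.9, 10.7, 22.6 and 12.1, and it had the highest coefficient of variation of the fold enrichment among the 35 members called throughout (20.7%). Both old-buffer libraries lay above both purified new-buffer ones, and the unpurified libraries overlapped with each.

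RPA3 had a weak peak far from its start, at 845, 844, 854, 807, 817 and 834 bp upstream, with 14 to 26 reads at the summit. At other annotated coding starts of RPA3, from 7679657 to 7680603 on chromosome 7 and inside the gene record, a much stronger peak was found in all 6 libraries. It had a fold enrichment of 13.0, 12.1, 11.9, 12.2, 10.9 and 13.1, 82 to 107 reads at the summit, and a rank within the top 0.571% of every list. The rule on gene starts does not count this peak.

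Okazaki fragment processing was the group with the fewest calls. LIG1, the ligase that joins the fragments, was the only 1 of its 4 genes called in all 6 libraries, with a −log10 q of 10.8, 13.3, 12.0, 13.7, 17.5 and 18.6. Both unpurified libraries, which were also the deepest, lay above the other 4. FEN1, the nuclease that removes the flap, was called in 3 libraries with a −log10 q of 5.35 in replicate 1 of the new buffer with purification and 8.66 and 4.95 in replicates 1 and 2 without purification.

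DNA2, a nuclease and helicase that cuts long flaps, was called in 3 libraries at 6.31 in replicate 2 of the old buffer, 6.31 in replicate 1 of the new buffer with purification and 4.0 in replicate 1 without purification. RNASEH2A, the catalytic subunit of RNase H2, which removes RNA from DNA, was called in replicate 1 of the old buffer at 4.33 and in replicate 2 of the new buffer with purification at 5.10. Its peaks were 297 and 200 bp wide and were the narrowest by mean among the members. The calls of RFC1, FEN1, DNA2 and RNASEH2A rested on 11 to 19 reads at the summit. No protocol called any of the 4 in both libraries except FEN1 without purification, and the unpurified libraries were also the deepest.

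By the rank of the peak in its own list, where 0% is the strongest, the helicase and origin genes lay highest. The median rank over the called genes, then over the 6 libraries, was 17.5% for the helicase, with a range over the libraries of 13.3% to 22.0%, and 17.9% for the origin, with a range of 10.3% to 24.2%. These ranges overlapped those of the clamp (median 23.3%, 21.0% to 31.7%) and the polymerases (26.8%, 17.7% to 36.2%). The single-strand binding genes had a median of 30.8% (22.3% to 52.6%), which became 17.6% when peaks were ranked by fold enrichment. For Okazaki fragment processing the median was 57.1%, and its range of 51.5% to 72.2% lay apart from the origin, helicase, polymerase and clamp genes. That group's median rests on 2 or 3 called genes in a library.

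As a list, the called members were close to other called genes in the strength and width of their peaks. Their median rank over the libraries was 22.1%, against 24.4% for all called genes, and their median fold enrichment was 7.70 against 7.03. The median width was 589 bp, with 549 to 635 bp over the libraries, against 621 bp and 560 to 650 bp for all called genes. Of the 35 members called throughout, 7 were in the top 10% of every list (20%), and 18.5% of all genes called throughout were. These 7 were ORC4, ORC5, ORC6, MCM3, GINS1, GINS4 and PCNA, of which GINS1 left at the canonical start. The top 25% of every list held 12 members (34.3%), against 40.0% of all genes called throughout. The fold enrichment varied over the 6 libraries with a median coefficient of variation of 11.8% for members and 11.5% for all genes.

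The summits lay just upstream of the start. At the record start the median offset of the called members was -44.5 bp, with -66 to -5 bp over the libraries, against -26 to -18 bp for all called genes. At the canonical start it was -99 bp, with -102.5 to -86 bp, against -83 to -77.5 bp. Of the 37 members called throughout at the canonical start, 33 had their median summit upstream of it (89.2%), as had 79.4% of all such genes, and 33 had it within 250 bp of the start, as had 85.1%. At the record start these shares did not stand above those of all genes in the same way, with 60% of 35 members upstream against 58.5% and 68.6% within 250 bp against 76.6%. The exceptions beyond 250 bp of the canonical start were ORC6, GINS3, PRIM2 and RPA3. The median summit lay downstream for CDC7 at 200 bp, GINS3 at 295 bp, LIG1 at 12.5 bp and RFC5 at 0.5 bp.

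**Figure D3:**
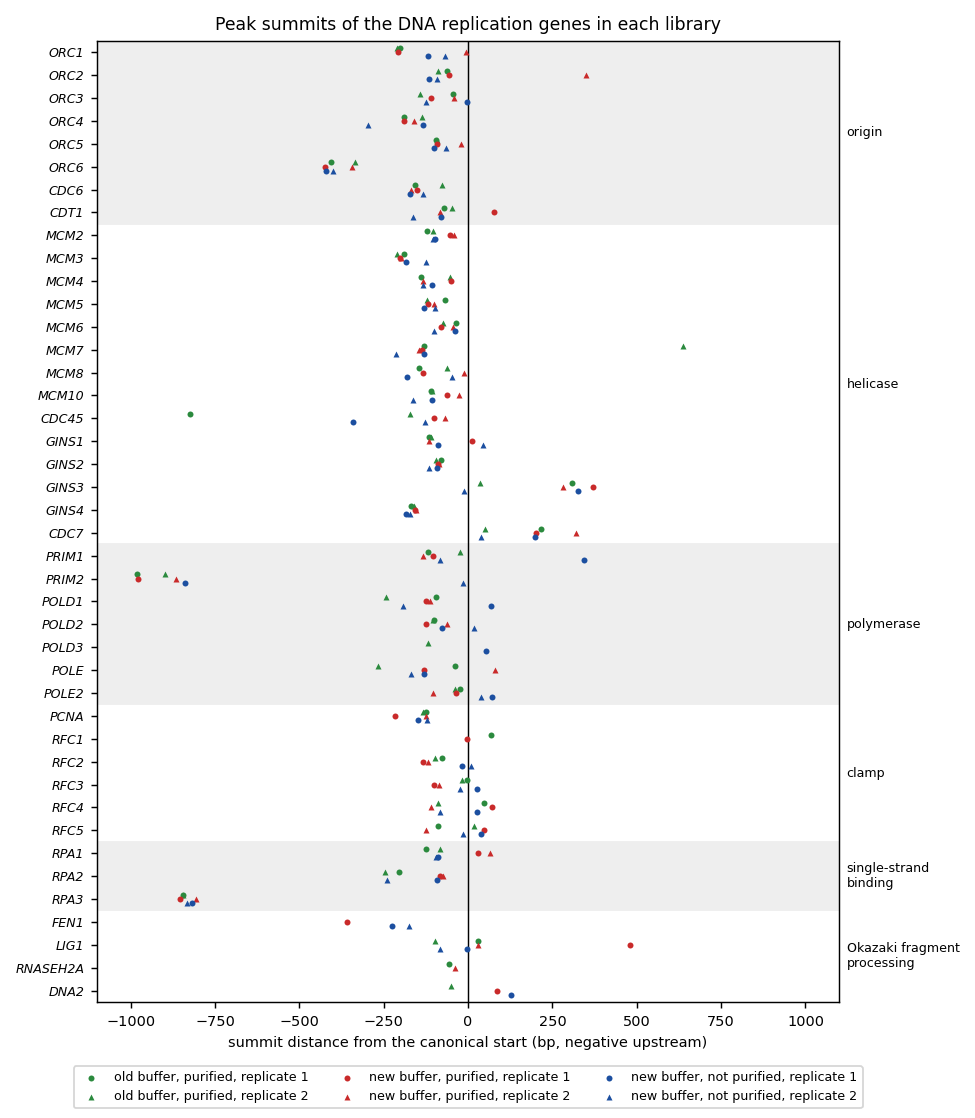
Distance of the peak summit from the canonical start (x axis, bp, negative upstream) for each replication gene (y axis, grouped by complex), with 1 point per library. Of the 37 genes called in all 6 libraries, 33 have a median summit within 250 bp of the start, while RPA3 lies 807 to 854 bp upstream in every library and PRIM2 840 to 981 bp upstream in 5.

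The 250 bases before the canonical start were searched on both strands for short elements of cell cycle promoters. E2F-type letters were taken as TTTCGCGC, TTTGGCGC or TTTCCCGC, where the first 2 can overlap on opposite strands. They were found in 11 of the 42 promoters (26.2%), in 3.24% of all protein-coding promoters, in 4.59% of those called in all 6 libraries and in 18.2% of the other replication genes. The 11 genes were ORC3, CDT1, MCM3, MCM4, MCM5, MCM6, MCM7, GINS2, POLE, RFC3 and LIG1, so 6 of the 14 helicase genes and 5 of the 6 ring genes were among them. All 11 were called in all 6 libraries, as were 26 of the 31 members without the letters. Of the 644 protein-coding promoters with the letters 395 were called throughout, and of all promoters 43.3% were. The peak covered the letters in all 6 libraries for 10 of the 11 members and in 5 for MCM7. The median member peak was 549 to 631.5 bp wide over the libraries, so a peak at the start covers much of the 250 bases searched. The same share over all called promoters with the letters was not computed, so this count says nothing particular about the letters. At the record start, which is displaced for some members, 6 of 42 promoters held the letters (14.3%), against 2.74% of all.

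The letters are shown for the helicase and origin promoters first, since most of the matches fell there. Each sequence is from the hg19 reference in the direction of transcription, 5′ to 3′, with the E2F-type letters or their reverse complement in capitals. MCM6 had 2 stretches in which letters on both strands overlap, from chr2:136634067-136634190 on the minus strand, and MCM5 had 1 such overlap, from chr22:35795909-35795970 on the plus strand. The MCM3 stretch is chr6:52149682-52149739 on the minus strand, that of CDT1 chr16:88870137-88870194 on the plus strand and that of GINS2 chr16:85722561-85722616 on the minus strand.
MCM6: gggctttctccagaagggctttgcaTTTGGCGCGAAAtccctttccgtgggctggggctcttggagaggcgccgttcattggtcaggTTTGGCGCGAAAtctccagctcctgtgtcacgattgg
MCM5: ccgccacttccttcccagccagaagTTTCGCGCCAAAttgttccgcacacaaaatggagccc
MCM3: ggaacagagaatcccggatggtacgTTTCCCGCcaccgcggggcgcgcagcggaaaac
CDT1: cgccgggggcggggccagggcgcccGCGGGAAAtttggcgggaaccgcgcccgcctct
GINS2: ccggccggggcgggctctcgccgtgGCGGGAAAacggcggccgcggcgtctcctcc

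For 5 more of the 11 genes a shorter stretch is given, because annotated exons of other transcripts overlap there, and MCM4 is named only. ORC3 is from chr6:88299830-88299852 on the plus strand, 1 of the sites of MCM7 from chr7:99699021-99699040 on the minus strand, POLE from chr12:133263929-133263957 on the minus strand, RFC3 from chr13:34392220-34392249 on the plus strand and LIG1 from chr19:48673697-48673726 on the minus strand.
ORC3: cgcgagggcgcGCGGGAAAtccc
MCM7: ggggggcgacgTTTCGCGCc
POLE: tgggtgggagcGCGCCAAAtttctcccct
RFC3: atttggagctcGCGGGAAAacttgtctctg
LIG1: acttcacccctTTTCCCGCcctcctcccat

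The distance from the summits to these letters varied between promoters. The letters were sought only in the 250 bases before the start, and 33 of 37 members had their median summit within 250 bp of it. Nearness is therefore partly set by the search, and it was not compared with other genes or other positions. In MCM6 the 6 summits lay at -14.5 to 49.5 bp from the middle of the TTTGGCGC nearer to the start (negative is upstream), and in MCM3 at -39.5 to 44.5 bp from the middle of TTTCCCGC. In GINS2 all 6 summits were upstream of the letters, at -89.5 to -51.5 bp, and in LIG1 all 6 were downstream, at 13.5 to 589.5 bp. Summits lay on both sides in POLE, at -251.5 to 94.5 bp, and in CDT1, at -130.5 to 108.5 bp. In MCM7 they lay at -29.5 to 821.5 bp from its TTTCCCGC. The median of the mean ranks was 22.2% for the 11 genes with the letters and 27.2% for the called genes among the other 31, and both groups ran from under 2% upward, so they overlapped.

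CCAAT, the element bound by NF-Y, was found in 25 of the 42 canonical promoters (59.5%) and in 34.3% of all, and in 39.5% of those called in all 6 libraries. The GC box GGGCGG, bound by SP1, was found in 29 (69.0%), in 59.2% of all and in 74.7% of those called throughout. The CHR-type letters TTTGAA, an element of promoters used later in the cell cycle, were found in none of the members. They were found in 10.1% of all promoters and in 7.42% of those called throughout. At the record start 3 members held them (7.14%), against 11.7% of all. A median of 64.8% of the bases searched before the member starts was G or C, against 63.2% for all genes and 66.4% for genes called throughout.

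**Figure D4:**
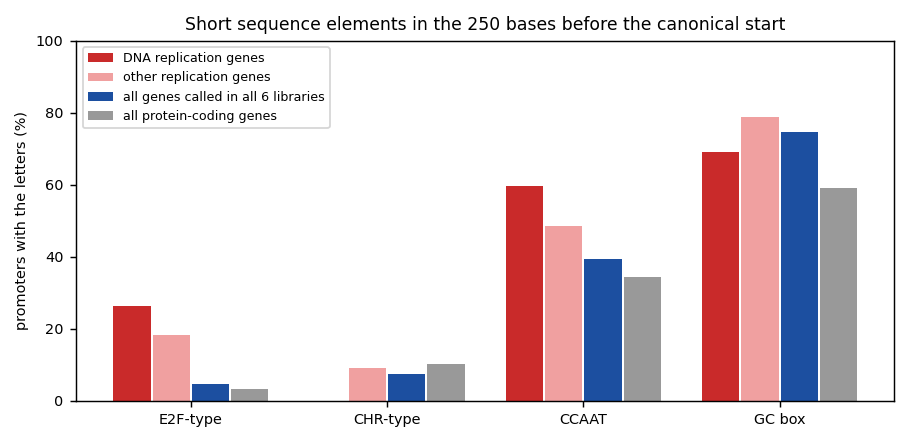
Share of promoters (y axis, percent) with each kind of short element (x axis) in the 250 bases before the canonical start, for the 42 replication genes, the other replication genes, all genes called in all 6 libraries and all protein-coding genes. E2F-type letters stand at 26.2% for the replication genes against 3.24% for all genes, and CCAAT at 59.5% against 34.3%, while the GC box at 69.0% lies below the 74.7% of called genes.

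Many of these genes have a coding neighbour that starts close to the record start. Of the 42 members 18 had a protein-coding gene on the other strand that started within 1 kb of the record start (42.9%), against 13.3% of all genes. In 7 of them 1 peak covered both starts in all 6 libraries. These were ORC3 with RARS2, ORC6 with VPS35, MCM2 with TPRA1, MCM8 with TRMT6, GINS1 with ABHD12, POLE with PXMP2, and PCNA with CDS2, of which GINS1 and PCNA have the displaced record start described above. GINS3 and POLD3, also among the 18, have a displaced record start too. The neighbours of ORC4, MCM7, PRIM1 and RPA1 start downstream of the record start, and no peak covered both starts for ORC4, RPA1 or GINS3. Of the 18 genes with such a neighbour 16 were called throughout, as were 19 of the 24 without. These calls by neighbour and the peaks over both starts were not counted over all genes, so they show nothing particular to the members. At a shared promoter the opening of the 2 genes cannot be told apart.

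The comparison of protocols asked whether the new buffer or the omission of purification changed these promoters. Fold enrichment and width were compared on the log2 scale with limma over the 8146 genes called in all 6 libraries, 35 of them members, with Benjamini-Hochberg adjustment in each contrast. The fit called 0% of genes and 0 members in any of the 6 comparisons. For fold enrichment 496, 440 and 353 genes had an unadjusted p under 0.05, of which 4, 2 and 2 were members, in the order new buffer purified against old, unpurified against old, and unpurified against purified. For width the numbers were 548, 603 and 344, of which 4, 5 and 3 were members. In a simulation of fold enrichment on the 8146 genes for unpurified against old, 73% of differences of log2 1 and 98% of those of log2 2 were recovered. Width and differences smaller than log2 1 were not simulated, so the share recovered for these is not known.

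The member with the smallest p for fold enrichment was RPA1, the large RPA subunit, at 4.19, 4.81, 7.48, 6.25, 6.50 and 5.59. Both old-buffer libraries were the lowest. The log2 difference was 0.61 ± 0.17 (SE) for new purified against old (adjusted p = 0.746, limma) and 0.42 ± 0.17 for unpurified against old (adjusted p = 0.842, limma).

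ORC3 had the smallest p between the protocols with the new buffer, with a fold enrichment of 7.87, 8.29, 12.2, 10.9, 9.03 and 8.18. The libraries of the purified new buffer were the highest. Unpurified against purified differed by -0.42 ± 0.15 (SE) on the log2 scale (adjusted p = 0.999, limma).

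For width it was RFC4, with 473, 416, 677, 597, 774 and 878 bp. The 3 protocols did not overlap, and unpurified against old differed by 0.89 ± 0.16 (SE) on the log2 scale (adjusted p = 0.495, limma). The share of all genes with 3 separate protocols was not computed. Of all genes 32.9% had both unpurified widths above both old-buffer ones, and the unpurified libraries were also the deepest. LIG1 had widths of 511, 539, 859, 839, 635 and 490 bp, and its purified new-buffer libraries were the widest. The log2 difference was 0.69 ± 0.17 (SE) for purified against old (adjusted p = 0.666, limma) and -0.61 ± 0.17 for unpurified against purified (adjusted p = 0.998, limma).

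**Figure D5:**
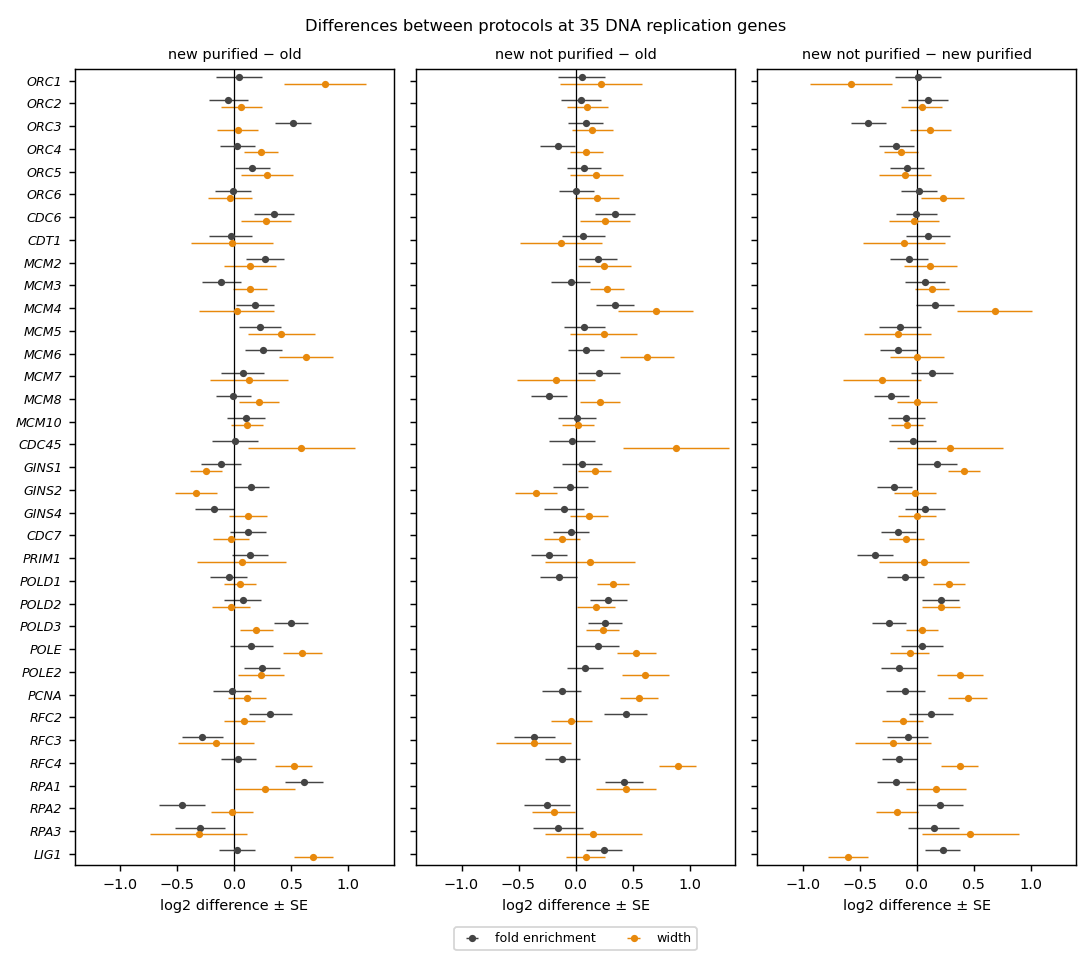
Log2 difference between protocols (x axis, bars are SE from limma) in fold enrichment and in width for the 35 replication genes called in all 6 libraries (y axis), in the 3 contrasts of protocols. None passed an adjusted p of 0.05, and the points lie on both sides of 0. Without purification 28 of 35 widths were higher than with the old buffer, where the median of all genes was itself higher by 0.13. Once library medians were subtracted, 20 of 35 were higher.

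Members whose 2 libraries of 1 protocol both lay above or both below those of another were also counted. In fold enrichment, 11 of the 35 members (31.4%) were higher with the new purified protocol than with the old buffer, against 21.5% of all genes, and 2 (5.71%) were lower, against 11.5%. Without purification 9 (25.7%) were higher than with the old buffer, against 19.8%, and 6 (17.1%) lower, against 14.1%. Without purification 1, LIG1 (2.86%), was higher than with purification, against 13.5%, and 11 (31.4%) were lower, against 19.7%. The contrasts against the old buffer share its libraries.

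For width, 8 of the 35 members (22.9%) were wider with the new purified protocol than with the old buffer, against 27.5% of all genes, and 2, GINS1 and GINS2 (5.71%), were narrower, against 7.72%. Without purification 14 (40%) were wider than with the old buffer, against 32.9%, and 1, GINS2 (2.86%), was narrower, against 6.26%. Without purification 8 (22.9%) were wider than with purification, against 19.5%, and 5 (14.3%) narrower, against 12.7%. The median width of all genes was itself higher by 0.10 and 0.13 on the log2 scale in the purified and unpurified new-buffer libraries than in the old ones, and that of the members by 0.12 and 0.18. With the median of each library subtracted, 4 members (11.4%, against 14.1% of all genes) were wider and 6 (17.1%, against 21.4%) narrower with the new purified protocol than with the old. Without purification 7 (20%, against 14.0%) were wider and 5 (14.3%, against 22.8%) narrower than with the old.

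A list of 33 other replication genes, such as the subunits of polymerase alpha, the checkpoint proteins TIMELESS, TIPIN and CLSPN and the nucleotide enzymes RRM1, RRM2, TYMS and TK1, was like the members in its calls. In all 6 libraries 29 of them were called (87.9%), and 30 (90.9%) at the canonical start. POLD4, the small subunit of polymerase delta, had no call at the record start, ATAD5, which unloads the clamp, was called in 2 libraries, RNASEH2C in 4 and CHAF1A in 5. Their median rank over the libraries was 22.8%, and their median width was 587 bp.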

How the data were processed

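The authors aligned the reads to hg19 with Bowtie2 2.1.0, removed duplicates with Picard 1.79 and ran MACS2 for narrow peaks (q value 0.01) without shifting reads for Tn5. Its version is not given in the sources used here. In the methods, they describe merging the reads of a condition first, but 1 list per library was used here. For each peak the deposited lists give a score, a fold enrichment (a ratio to the local background), the −log10 p and the −log10 q, which were all made by the authors' peak caller.

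Members and lists were chosen with earlier results of these data known. Gene starts and canonical starts came from GENCODE version 44 on GRCh37, and 19856 of 20136 genes had a canonical start. Calls used a window of 1 kb each side and at least 1 bp of overlap, checked against bedtools 2.31.1. Values were named for members missing in a library, for the strongest in each complex, for the 3 summits farthest from the start, for the widest and narrowest peak and for the smallest p of each contrast. GINS1, GINS4, CDC45, CDT1, CDC6, CDC7, POLD3 and MCM6 were also described after their values were seen. Summit reads were solved from the fold enrichment and the −log10 p, within 0.001 for 100% of peaks, and these give relative depth and counting error only. limma 3.58.1 in R 4.3.3 was used without a replicate term, tested on simulated fold enrichment, and no pseudocount was needed. With 2 libraries against 2, an exact two-sided permutation test cannot go below 0.333. Other windows, starts, thresholds and replicates left out were tried as alternatives. Some markers and list genes are not reported here by name.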

Additional observations from a re-analysis of the deposited data

How the results depend on the processing

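The number of members called in all 6 libraries was 33 to 38 over the other windows, starts, peak thresholds, an equal number of peaks and the summit rule, and 35 with any library left out. The median summit offset was -99 bp at the canonical start and -47 to -42 bp with a library left out. The median rank of the single-strand binding genes was 17.6% by fold enrichment, and the other 5 complexes moved by less than the spread between replicates. With the peak nearest to the start, limma called 1 gene in width without purification against the old buffer and 1 against the purified protocol, neither a member, and 0 in fold enrichment. Replicate numbers did not pair the libraries, since replicate differences correlated between protocols at -0.032 to 0.018, and a replicate block called 0 genes in all 6 comparisons. After subtraction of library medians, 3 of 35 members were higher (8.57%, against 15.6% of all genes) and 9 lower (25.7%, against 17.3%) in fold enrichment without than with purification, and in width the members above and below the old buffer were 4 and 6 for the purified (against 14.1% and 21.4% of all genes) and 7 and 5 for the unpurified new buffer (against 14.0% and 22.8%). At the canonical start 11 promoters held E2F-type letters, 0 CHR-type letters and 29 a GC box, against 6, 3 and 19 at the record start. The canonical start for motifs, width, rank and limma and the nearest peak for limma were added after the data were seen. The 12 values named here were those that moved, while 189 other summary values and 73 for single genes did not. RFC1, FEN1, DNA2 and RNASEH2A had 11 to 19 reads at their summits where called. The 2 deepest libraries both called FEN1 but called neither RFC1 nor RNASEH2A. Since these 2 libraries are also the unpurified ones, depth and protocol cannot be told apart here.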
